A study of Mus musculus with 8 samples.

Results

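The heat shock and chaperone genes described here are Hsf1, Hspa1a, Hspa1b, Hspa8, Hsph1, Dnajb1, Hsp90aa1, Hsp90ab1, Hspb1 and Hspe1, found by symbol as 10 of the 54532 genes in a table of RNA-seq read counts. The RNA came from bone marrow-derived macrophages (BMDMs), a primary culture in which bone marrow cells become macrophages. The bone marrow came from wild-type (WT) mice in 4 libraries and from mice without Gsdmd (Gsdmd-/-) in the other 4, and the labels give no treatment for any of them. Gsdmd encodes gasdermin D, which forms pores in the cell membrane during pyroptosis, a lytic cell death. The WT mice were bought female C57BL/6J mice, while the knockout mice were a gift kept as a colony, for which no tissue-specific driver of the deletion is named. Methods for BMDMs give female C57BL/6J mice of 6 to 8 weeks and 6 days of differentiation with M-CSF, the growth factor of macrophages, at 20 ng/ml. Littermates are not mentioned for the 2 genotypes, so mouse source and genotype cannot be told apart. It is not stated which mouse or culture gave each library, and p-values therefore measure only the spread between libraries, which may be technical.

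Heat shock proteins are chaperones that help other proteins to fold and keep damaged proteins from clumping. In unstressed cells the transcription factor HSF1 is held inactive in part by chaperones, and when damaged proteins draw these away, HSF1 binds heat shock elements, which are inverted repeats of the unit GAA, and drives transcription of genes such as Hspa1a, Hspa1b, Hspb1, Dnajb1 and Hsph1. Other members, such as Hspa8 and Hsp90ab1, are made at a high level in most cells without stress. Heat, oxidative stress and rough handling of cells are known to induce the first kind, and macrophages also use these proteins in antigen handling and inflammatory signaling.

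The promoters of Hspa1a, Hspa1b and Hspb1 are shown first, since these heat-inducible genes had the lowest levels of the 10. A promoter was found by symbol in the RefSeq table (GRCm38.p6) for 6 of the 10 genes, and none for Hspa8, Hsp90aa1, Hsp90ab1 and Hsf1. Shown are the 250 bases before the RefSeq start, 5′ to 3′, of Hspa1a (chr17:34972157-34972406, minus strand), Hspa1b (chr17:34959239-34959488, minus strand) and Hspb1 (chr5:135887669-135887918, plus strand). Capitals mark GAANNTTC, a pair of inverted units, which reads the same on both strands.
Hspa1a: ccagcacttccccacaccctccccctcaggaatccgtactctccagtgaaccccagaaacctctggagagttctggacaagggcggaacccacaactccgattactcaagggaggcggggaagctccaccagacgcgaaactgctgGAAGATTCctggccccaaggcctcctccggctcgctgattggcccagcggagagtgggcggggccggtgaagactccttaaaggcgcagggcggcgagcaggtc
Hspa1b: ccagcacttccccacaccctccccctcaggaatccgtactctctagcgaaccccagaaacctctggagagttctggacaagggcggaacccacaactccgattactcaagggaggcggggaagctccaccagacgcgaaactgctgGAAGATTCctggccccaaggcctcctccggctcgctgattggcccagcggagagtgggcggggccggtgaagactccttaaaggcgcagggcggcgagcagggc
Hspb1: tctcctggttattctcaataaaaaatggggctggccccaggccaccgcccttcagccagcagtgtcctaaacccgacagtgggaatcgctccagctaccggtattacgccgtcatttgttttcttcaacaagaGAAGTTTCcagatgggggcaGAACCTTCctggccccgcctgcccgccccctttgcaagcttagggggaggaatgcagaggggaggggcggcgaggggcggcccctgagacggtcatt

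Hspa1a and Hspa1b each had 1 match, starting 104 bases before the start of the gene. Their windows differed at 3 of 250 positions, C44T, T47C and T249G, with the Hspa1a base first and positions counted from 1 at the 5′ end. Hspb1 had 2 matches, starting 117 and 97 bases before the start. The same letters were found in 6.69% of all 32851 RefSeq windows of this length, and the other order, TTCNNGAA, in 7.17%. Among the windows that are not printed, that of Hspe1 had 1 GAANNTTC and 2 TTCNNGAA, which overlapped each other and held 2 runs of 3 alternating units, a run found in 0.466% of all windows. Hsph1 had 1 TTCNNGAA in each of its windows, and Dnajb1 had neither motif. These windows run into exons annotated in GENCODE, with 0 bases outside exons for Hspe1, 203 and 5 for the windows of Dnajb1, and the match of Hsph1 not within its bases outside exons. A match describes these letters only and is not a measured binding site.

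The genes lie on several chromosomes of the mm10 mouse genome. Positions of whole genes were taken from GENCODE M21. Hspa1b (chr17:34956436-34959238, minus strand) and Hspa1a (chr17:34969190-34972156, minus strand) are neighbours with a gap of 9.95 kb, and Hsf1 (chr15:76477422-76501913, plus strand) lies 610 kb from Gsdmd on the same chromosome. The others are Hspa8 at chr9:40800984-40810087, Hsph1 at chr5:149614287-149636376, Dnajb1 at chr8:83608193-83612653, Hsp90aa1 at chr12:110690605-110702728, Hsp90ab1 at chr17:45567775-45573271, Hspb1 at chr5:135887919-135889563 and Hspe1 at chr1:55088132-55091307. Values are given as CPM, which scale each count by the TMM-adjusted total of its library, and a fold change is Gsdmd-/- over WT on the log2 scale.

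The libraries held 14935114 to 16794810 counts each, and a count of 0 allows up to 3 counts, or 0.177 to 0.199 CPM, for counting error only. Of all genes 12911 had enough counts to be tested. Gsdmd had 1213, 1039, 1121 and 1570 counts in WT 1 to 4 and 307, 243, 257 and 241 in Gsdmd-/- 1 to 4, so every Gsdmd-/- library was below every WT library, as labelled (log2 fold change -2.22, two-sided exact permutation p = 0.0286, the smallest that 4 against 4 libraries can give). All 8 macrophage markers were detected in both genotypes, with a summed level of 16144 to 23945 CPM in WT and 20003 to 23945 CPM in Gsdmd-/-. WT 2 and WT 3 stood apart on the first principal component (45.4 and 38.8, the other 6 between -25.9 and -7.19). The 6 dendritic cell markers summed to 19.8 to 51.9 CPM in WT and 16.6 to 20.4 CPM in Gsdmd-/-, with Siglech at 0 in every library. Of these markers, Clec9a had 17.0, 49.1, 45.3 and 17.6 CPM in WT 1 to 4 and 14.5 to 18.3 CPM in Gsdmd-/-, so WT 2 and WT 3 were the high libraries. Clec9a thus made up most of each sum, and only 2 of the 6 markers had a mean of 1 CPM or more. The marker sums of other cell types overlapped between the genotypes, except for the 5 erythroid markers. These summed to 0.305 to 0.367 CPM in WT and 0.118 to 0.190 CPM in Gsdmd-/- with Hba-a1 and Hbb-bs at 0. Such sums lie near the limit of 0.177 to 0.199 CPM, and 0 erythroid markers could be tested. In bulk samples fewer cells of a type and less RNA per cell cannot be told apart.

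The constitutive chaperones Hsp90ab1 and Hspa8 were among the most abundant transcripts of these macrophages, and the inducible Hspa1a, Hspa1b and Hspb1 were near the limit of detection. Divided by the length of all annotated exons, Hsp90ab1 had a mean level of 528 CPM per kb in WT and 482 in Gsdmd-/-, above 99.5% of the 12906 tested genes with a length. Hspa8 followed with 306 and 294 CPM per kb, above 99.1% of genes. Hsp90aa1 (62.6 and 67.1) and Hspe1 (56.0 and 55.6) came next, and their libraries overlapped, from 58.5 to 72.3 and from 46.8 to 67.8 CPM per kb. Dnajb1 had 10.2 and 9.89 CPM per kb, and Hsph1 had 7.45 and 6.14. The lowest library of Dnajb1 was at 8.92 CPM per kb and the highest of Hsph1 at 8.91, so these neighbours nearly met. Hsf1 had 3.11 and 2.85 CPM per kb, above 39.2% of genes.

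Hspa1b (0.305 and 0.201 CPM per kb), Hspb1 (0.237 and 0.103) and Hspa1a (0.200 and 0.232) were the lowest, above 4.43%, 2.23% and 3.33% of the tested genes. Their libraries overlapped each other, so no order among these 3 can be given. Exon length was taken over all transcripts of a gene, and the level of a gene whose short transcripts are the ones used is understated.

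**Figure D1:**
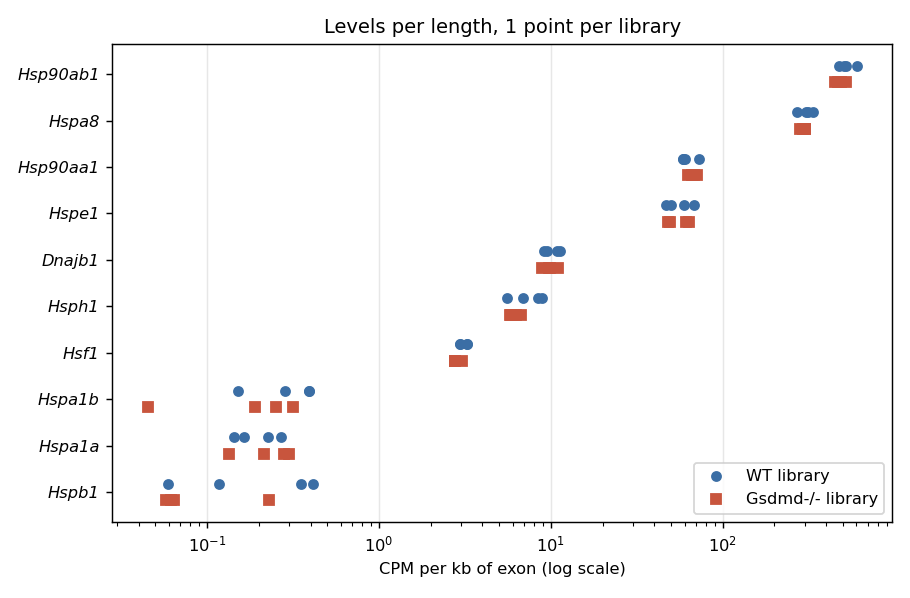
Level of each heat shock and chaperone gene in CPM per kb of exon on a log axis, with 1 circle per WT library and 1 square per Gsdmd-/- library. Hsp90ab1 (means 528 and 482) and Hspa8 lie far above Hspa1b, Hspa1a and Hspb1 (means 0.103 to 0.305), and the genotypes overlap in every row.

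No heat shock or chaperone gene passed the test between the genotypes. Of the 10 genes, 9 could be tested, and 0 were higher or lower in Gsdmd-/- at an adjusted p under 0.05 (edgeR quasi-likelihood test, Benjamini-Hochberg adjustment). Over all genes tested, 0.139% were higher and 0.209% were lower at this threshold. At an unadjusted p under 0.05, called for 4.74% of all genes as higher and 7.3% as lower, 0 of the 9 passed. At the study's cutoff, which also asks for a log2 fold change of 0.5 or more in size, all genes gave 1.54% higher and 3.28% lower, and the 9 again gave 0. The libraries of the genotypes overlapped for all 10 genes, while among all genes 3.48% were higher and 4.12% lower without overlap. The fold change was below 0 for 7 of the 9 tested genes with a median of -0.06, against 6653 of 12911 and a median of -0.01 for all genes. For 6 of the 9, the 95% interval lay within a change of 1.5-fold in either direction.

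HSF1, the main transcription factor of the response, is regulated mostly at the protein level. Hsf1 had 21.1, 20.96, 23.0 and 23.1 CPM in WT 1 to 4 and 21.7, 19.6, 19.7 and 19.8 CPM in Gsdmd-/- 1 to 4. Gsdmd-/- 1 lay within the WT range and the other 3 below it. The means were 22.1 ± 1.18 and 20.2 ± 1.03 CPM (SD, n = 4 each), and the log2 fold change was -0.13 (SE 0.0894, 95% interval -0.32 to 0.07, adjusted p = 0.622).

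Hspa1a and Hspa1b encode nearly the same protein, the stress-inducible cytosolic HSP70. Hspa1a was counted 7, 8, 13 and 11 times in WT and 15, 14, 10 and 6 times in Gsdmd-/-, or 0.426, 0.489, 0.794 and 0.669 CPM against 0.889, 0.828, 0.634 and 0.398 CPM. The 2 highest libraries and the lowest one were all Gsdmd-/-. The log2 fold change was 0.22 (SE 0.358, 95% interval -0.58 to 1.01, adjusted p = 0.852). Hspa1b was counted 7, 18, 13 and 18 times in WT and 15, 12, 2 and 8 times in Gsdmd-/-, which is 0.426, 1.10, 0.794 and 1.10 CPM against 0.889, 0.710, 0.127 and 0.531 CPM. Its highest libraries were WT 2 and WT 4, and Gsdmd-/- 3 was below the limit of 3 counts. The log2 fold change of Hspa1b was -0.58 (SE 0.492, 95% interval -1.67 to 0.51, adjusted p = 0.692), and it ran from -0.88 without Gsdmd-/- 1 to -0.26 without Gsdmd-/- 3, the library with 2 counts. For Hspa1a the range with 1 library left out was 0.07 to 0.40. At this depth a change of Hspa1b between 0.314-fold and 1.43-fold could not be told from none.

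Reads from these copies are hard to assign, since 56.5% of the 100-base windows of Hspa1a and 49.9% of those of Hspa1b also occur in another gene, mostly in the other copy. How the authors' counting treated such reads is not given in the sources used here, and a level that leaves them out is too low. The 2 genes were therefore also added together, giving 14, 26, 26 and 29 counts in WT and 30, 26, 12 and 14 in Gsdmd-/-. The sum was 1.45 ± 0.406 CPM in WT and 1.25 ± 0.484 CPM in Gsdmd-/- (SD, n = 4 each, two-sided exact permutation p = 0.629). Gsdmd-/- 1 and Gsdmd-/- 2 lay near WT 2 to 4, while Gsdmd-/- 3 and Gsdmd-/- 4 lay near WT 1, so both genotypes held high and low libraries. The fitted log2 fold change of the sum was -0.21 (SE 0.342, 95% interval -0.96 to 0.55, adjusted p = 0.852), from -0.42 without Gsdmd-/- 1 to -0.03 without Gsdmd-/- 3. The 2 copies had fold changes of opposite sign, and neither passed the test. Hspa1a also shares 564 exon bases with Gm20481 on the other strand, which had 0 counts in every library.

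Hspa8 encodes the constitutive HSP70, HSC70. It had 1166, 1312, 1445 and 1342 CPM in WT and 1289, 1210, 1301 and 1254 CPM in Gsdmd-/-. The Gsdmd-/- libraries lay within the WT range. The means were 1316 ± 115 and 1263 ± 40.8 CPM (SD, n = 4 each), and the log2 fold change was -0.06 (SE 0.0878, 95% interval -0.25 to 0.14, adjusted p = 0.835). Of its windows, 28.5% also occur in 1 or more of 9 other genes, of which the main one, Gm15459, had 0 counts. Hspa1a and Hspa1b together made up 0.0730%, 0.121%, 0.110% and 0.131% of the counts of the 3 HSP70 genes in WT, and 0.138%, 0.127%, 0.0585% and 0.0740% in Gsdmd-/-. The inducible share overlapped between the genotypes (0.109% ± 0.0254 and 0.0993% ± 0.0389, SD, n = 4 each).

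Hsph1 encodes HSP110, which exchanges the nucleotide of HSP70 and helps to dissolve aggregates. It had 40.4, 64.8, 61.4 and 50.0 CPM in WT and 41.9, 45.7, 48.5 and 42.5 CPM in Gsdmd-/-. WT 2 and WT 3 were high and WT 1 was the lowest library of all. The log2 fold change was -0.28 (SE 0.141, 95% interval -0.59 to 0.03, adjusted p = 0.486), and its unadjusted p of 0.0754 was the lowest of the 9 tested members. Without WT 2 and WT 3, the libraries with the most Clec9a, the log2 fold change of Hsph1 was -0.02 (adjusted p = 0.973), and without WT 1 it was -0.40 (adjusted p = 0.181). Clec9a is 1 of 6 dendritic cell markers, and a part of dendritic cells or of these libraries in the value was not tested further.

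Dnajb1 encodes a J-domain protein (HSP40) that passes substrates to HSP70. It had 29.2, 30.5, 34.6 and 36.4 CPM in WT and 35.3, 28.6, 31.6 and 31.3 CPM in Gsdmd-/-. The lowest library was Gsdmd-/- 2 and the highest WT 4, with the rest mixed. The means of 32.7 ± 3.39 and 31.7 ± 2.77 CPM (SD, n = 4 each) gave a log2 fold change of -0.04 (SE 0.104, 95% interval -0.28 to 0.19, adjusted p = 0.902). None of its windows occurs in another gene.

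Hsp90aa1 and Hsp90ab1 encode the inducible and the constitutive form of cytosolic HSP90, which matures kinases and steroid receptors. Hsp90aa1 had 238, 232, 230 and 284 CPM in WT and 248, 259, 280 and 269 CPM in Gsdmd-/-. WT 4 was the highest library and the other 3 WT libraries were the lowest. Its log2 fold change was 0.10 (SE 0.0914, 95% interval -0.10 to 0.30, adjusted p = 0.713). It was 0.18 without WT 4 (adjusted p = 0.237) and 0.01 without WT 2 and WT 3. Hsp90ab1 had 1528, 1427, 1563 and 1812 CPM in WT and 1406, 1347, 1566 and 1462 CPM in Gsdmd-/-. WT 4 was again the highest, and Gsdmd-/- 2 was the lowest. The log2 fold change of Hsp90ab1 was -0.13 (SE 0.0973, 95% interval -0.35 to 0.09, adjusted p = 0.647), or -0.06 without WT 4 and -0.21 without WT 2 and WT 3.

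The ratio of the HSP90 genes was also examined. Hsp90aa1 made up 13.5%, 13.98%, 12.8% and 13.6% of the counts of both genes in WT and 15.0%, 16.1%, 15.2% and 15.5% in Gsdmd-/-. Every Gsdmd-/- library was above every WT library (15.4% ± 0.507 and 13.5% ± 0.478, SD, n = 4 each). This ratio was picked after the values were seen, as the 1 of 36 ratios between 2 tested members whose libraries did not overlap, and no p is given for it. The 36 ratios share their genes, and the share of ratios without overlap over all pairs of genes was not computed. Neither gene passed the test on its own. Of the windows of Hsp90aa1, 38.0% also occur in 1 or more of 3 other genes, mostly in Gm12346, which had 342 counts over the WT libraries and 348 over the Gsdmd-/- libraries, against 0 shared windows for Hsp90ab1.

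**Figure D2:**
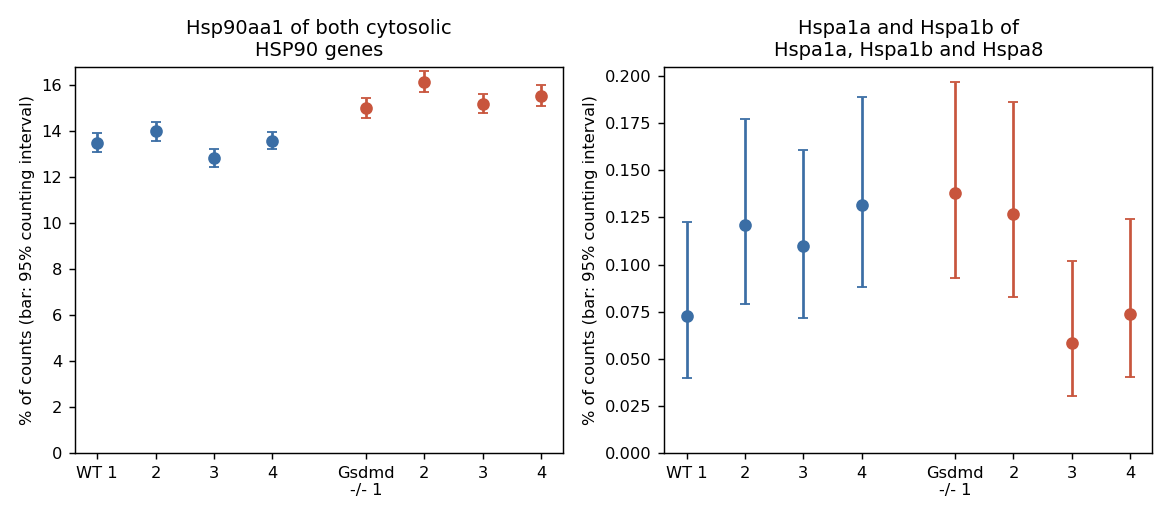
Share of counts in percent for each library (WT blue, Gsdmd-/- red), with Hsp90aa1 of both cytosolic HSP90 genes on the left and Hspa1a plus Hspa1b of the 3 HSP70 genes on the right, and bars giving the exact 95% binomial interval, which covers counting error only. The HSP90 share is 12.8% to 13.98% in WT and 15.0% to 16.1% in Gsdmd-/-, while the HSP70 share overlaps, from 0.0585% to 0.138% over all libraries.

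Hspb1 encodes a small heat shock protein that holds unfolded proteins and binds the actin cytoskeleton. It was counted 2, 7, 1 and 6 times in WT and 4, 1, 1 and 1 times in Gsdmd-/-, and was too low to be tested. WT 2, WT 4 and Gsdmd-/- 1 had more than 3 counts and the other 5 libraries did not, so a difference was not detectable at this depth. With no filter on low counts its log2 fold change was -1.10 (SE 0.819, 95% interval -2.81 to 0.61, adjusted p = 0.652). Of its windows, 44.0% also occur in 1 or more of 2 other genes, all of them in Hsp25-ps1, which had 0 counts.

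Hspe1 encodes HSP10, the lid of the mitochondrial chaperonin whose ring is encoded by Hspd1. It had 73.3, 69.0, 87.8 and 99.99 CPM in WT and 90.6, 71.0, 93.7 and 72.4 CPM in Gsdmd-/-. High and low libraries occurred in both genotypes. The means of 82.5 ± 14.1 and 81.9 ± 11.9 CPM (SD, n = 4 each) gave a log2 fold change of -0.01 (SE 0.140, 95% interval -0.32 to 0.30, adjusted p = 0.986). Hspd1, which shares 112 exon bases with Hspe1 on the opposite strand, had 194 and 211 CPM on average and a log2 fold change of 0.12 (SE 0.0905, adjusted p = 0.648).

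**Figure D3:**
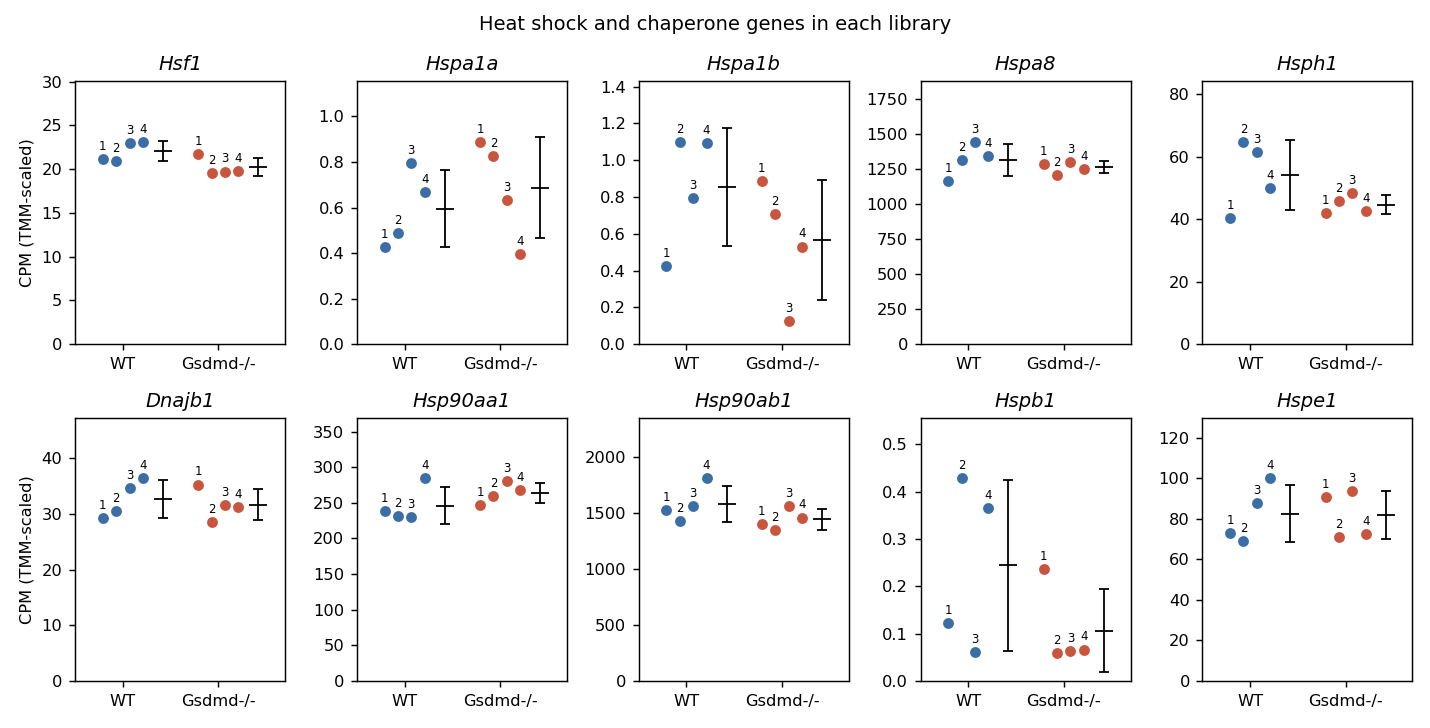
Level of each heat shock and chaperone gene in CPM (axes from 0), with 1 numbered point per library and the mean with SD to its right (n = 4 per genotype, WT blue, Gsdmd-/- red). The genotypes overlap in all 10 panels, and the highest point is a WT library for 9 genes, for 5 of them WT 4. The share of all genes with their highest point in WT was not computed.

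The members varied together only in part across the 8 libraries. Over the 36 pairs of tested members, Pearson's r of log2 CPM had a median of 0.36 and ran from -0.38 to 0.83, with 29 pairs above 0. These values share their libraries and their depth, and are given as a description. The median log2 difference of the tested members from the WT mean was -0.16, -0.08, 0.09 and 0.17 in WT 1 to 4 and 0.01, -0.17, -0.01 and -0.16 in Gsdmd-/- 1 to 4. WT 4 was thus the highest of the 8 libraries, and WT 1 lay near the lowest, Gsdmd-/- 2. The highest library was a WT library for 9 of the 10 genes, and the share of all genes for which this holds was not computed. Over all genes, pairs of WT libraries differed by a chi-square per gene of 7.65 to 82.0 and pairs of Gsdmd-/- libraries by 5.92 to 25.2, so the wider WT spread was not particular to these genes. The genes whose log2 CPM was most like the mean z-score of the tested members over the 8 libraries were Hyi (r = 0.987), Trip10 (0.965), Gm7730 (0.953), Zfp341 (0.951) and Rpl28-ps3 (0.949), selected from all tested genes for this likeness.

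The wider chaperone network was examined in 10 other lists with 86 genes, of which 77 were tested. None of them passed at an adjusted p under 0.05 in the quasi-likelihood test, 0 were higher and 4 lower at an unadjusted p under 0.05, and 0 were higher and 2 lower at the study's cutoff. The 77 fold changes had a median of -0.02, with 32 above 0 and 45 below, and 73 lay within 0.5 of 0. Without overlap of the libraries, 0 of the 77 genes were higher and 3 lower. Over all genes tested, 4.74% were higher and 7.3% lower at the unadjusted p. At the cutoff these shares were 1.54% and 3.28%, and without overlap 3.48% and 4.12%.

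The 2 genes lower at the cutoff were Dnajb2 and Hspb6. Dnajb2, a J-domain protein that sorts substrates for degradation, had 7.06, 10.4, 9.77 and 8.09 CPM in WT and 5.39, 5.62, 5.71 and 5.57 CPM in Gsdmd-/-. Its libraries did not overlap, and the log2 fold change was -0.66 (SE 0.150, adjusted p = 0.115), or -0.45 without WT 2 and WT 3 (adjusted p = 0.204). Dnajb2 did pass with DESeq2 (adjusted p = 0.0121) and with the exact test of edgeR (adjusted p = 0.0209), which also called several times more genes overall. Hspb6, a small heat shock gene, had 3.11 ± 0.328 CPM in WT and 2.07 CPM in Gsdmd-/- on average with overlapping libraries (log2 fold change -0.58, SE 0.242, adjusted p = 0.377). The other 2 genes at an unadjusted p under 0.05 were Lonp1, a mitochondrial protease (log2 fold change -0.25, adjusted p = 0.336), and Hyou1, a chaperone of the endoplasmic reticulum (-0.26, adjusted p = 0.260), both named after their values were seen. Besides Dnajb2, the libraries did not overlap for Hyou1 and for Clpb (log2 fold change -0.17, adjusted p = 0.485), also named after their values were seen.

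Several genes are known partners or co-targets of the members. Bag3, an HSP70 co-chaperone that is itself a target of HSF1, had 72.5, 128, 131 and 79.8 CPM in WT and 74.5, 77.8, 82.6 and 91.6 CPM in Gsdmd-/-. As for Hsph1, WT 2 and WT 3 were the high libraries. The log2 fold change of Bag3 was -0.34 (SE 0.189, adjusted p = 0.536) and turned to 0.10 without these 2 libraries (adjusted p = 0.799). Hsf2, a second heat shock factor, and Dnaja1, another J-domain gene, were at 0.10 on the same log2 scale (adjusted p = 0.761 and 0.744). The libraries of these 3 genes overlapped between the genotypes.

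Early genes are genes such as Fos and Egr1 that are transcribed within minutes of serum, growth factors or handling of the cells. They were set beside the heat shock genes because both groups are known to respond when cells are disturbed. Of 32 early genes listed, 31 were tested, 7 were higher in Gsdmd-/- at an adjusted p under 0.05 and 0 were lower, where the 9 heat shock genes gave 0 in each direction. The absence of lower early genes depended on the test, since Jun and Atf3 passed as lower with DESeq2 and with the exact test of edgeR. At the study's cutoff 10 early genes were higher and 2 lower. Their median log2 fold change was 0.19, and 11 were higher and 3 lower without overlap of the libraries. Over all genes tested, 0.139% were higher and 0.209% lower at the adjusted p, 1.54% and 3.28% at the cutoff, and 3.48% and 4.12% without overlap. The list was written with earlier results on some of its genes known, so its counts are not independent evidence.

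Among the early genes that passed, Egr1, a zinc finger transcription factor, had 9.01, 2.44, 2.38 and 5.36 CPM in WT and 75.5, 77.0, 38.6 and 40.5 CPM in Gsdmd-/-. All Gsdmd-/- libraries were above all WT libraries (log2 fold change 3.59, SE 0.424, adjusted p = 0.00590). Fos, a subunit of AP-1, had 48.3, 56.9, 60.2 and 42.8 CPM in WT and 134, 119, 105 and 98.5 CPM in Gsdmd-/- (log2 fold change 1.13, SE 0.133, adjusted p = 0.00590). Dusp1, a phosphatase of MAP kinases, rose from 54.5 to 124 CPM on average (log2 fold change 1.19, SE 0.119, adjusted p = 0.00178). Zfp36, whose product destabilizes cytokine mRNAs, rose from 99.2 to 195 CPM (log2 fold change 0.97, SE 0.0854, adjusted p = 8.2e-04). Ier2 (1.19, adjusted p = 0.0146), Klf2 (0.91, adjusted p = 0.0302) and Myc (0.51, adjusted p = 0.0361) also rose. Each of these 7 passed without WT 2 and WT 3. Ier2 had an adjusted p of 0.0597, 0.0822 and 0.0676 without WT 3, Gsdmd-/- 1 or Gsdmd-/- 3, with values above 0.05 reached also by Klf2 (up to 0.153) when any library but WT 1 or WT 4 was left out, and by Myc (up to 0.164) when any but WT 4 was. With a block for the replicate number, Klf2 (adjusted p = 0.0578) and Myc (adjusted p = 0.149) also lost their calls.

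Not all early genes moved this way. Jun, the partner of Fos in AP-1, had 157, 235, 246 and 174 CPM in WT and 138, 126, 140 and 137 CPM in Gsdmd-/-. Its libraries did not overlap, and the log2 fold change was -0.58 (SE 0.140, adjusted p = 0.134), or -0.29 without WT 2 and WT 3 (adjusted p = 0.185). Atf3, a stress-induced transcription factor, had 501 and 344 CPM on average (log2 fold change -0.54, SE 0.137, adjusted p = 0.165), or -0.32 without WT 2 and WT 3 (adjusted p = 0.271). With DESeq2 the adjusted p was 0.00988 for Jun and 0.0153 for Atf3, and with the exact test of edgeR 0.0143 and 0.0247. Junb (0.53, adjusted p = 0.0751), Ier3 (0.90, adjusted p = 0.115) and Btg2 (0.51, adjusted p = 0.0889) were higher at the cutoff and did not pass at an adjusted p under 0.05 in the quasi-likelihood test. They passed with DESeq2 (adjusted p = 4.8e-04, 0.00353 and 0.00260) and with the exact test of edgeR (adjusted p = 0.00216, 0.00449 and 0.00824). Junb and Ier3 also passed with no filter (adjusted p = 0.0216 and 0.0139) and without WT 4 (adjusted p = 0.0450 and 0.0298). Without WT 2 and WT 3, Btg2 passed (adjusted p = 0.0278), and the log2 fold change of Ier3 was 0.54 (adjusted p = 0.0757).

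Set side by side by library, the early genes had a median log2 difference from the WT mean of 0.02, -0.11, -0.0025 and 0.14 in WT 1 to 4 and of 0.26, 0.22, 0.24 and 0.16 in Gsdmd-/- 1 to 4. The same median for the heat shock genes was highest in WT 4 and in WT 3, with Gsdmd-/- values from -0.17 to 0.01. The order and time of harvest are not given in the sources used here, and a part of handling in these values was not tested.

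**Figure D4:**
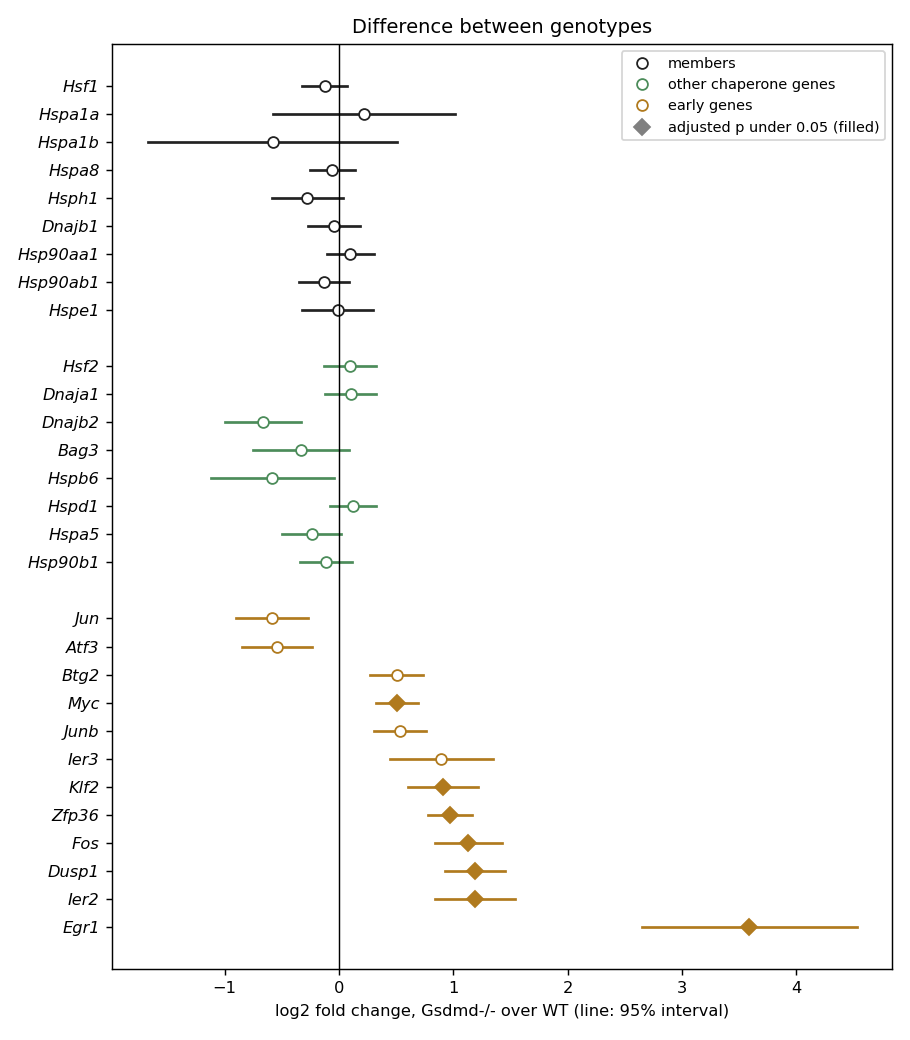
Log2 fold change, Gsdmd-/- over WT, of the 9 tested heat shock and chaperone genes (black), 8 other chaperone genes (green) and 12 early genes (brown), with lines for the 95% interval and filled diamonds for an adjusted p under 0.05 in edgeR's quasi-likelihood test. All tested heat shock genes are drawn, but only those early genes, of 31 tested, that passed the adjusted p or the study's cutoff. The black intervals all cross 0, the widest being that of Hspa1b (-1.67 to 0.51), and the filled diamonds are early genes, with Egr1 farthest to the right at 3.59.

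**Figure D5:**
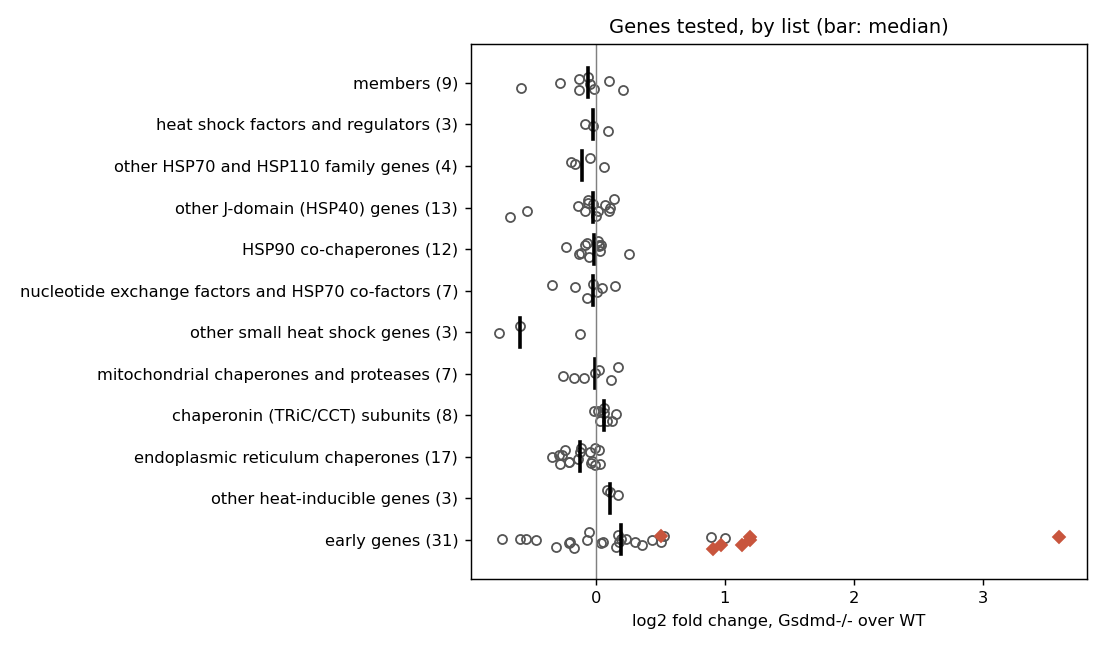
Log2 fold change, Gsdmd-/- over WT, of every tested gene of the heat shock genes, the 10 other chaperone lists and the early genes (number of genes in brackets), with bars for medians and filled red diamonds for an adjusted p under 0.05. The chaperone lists hold 0 diamonds and the early genes 7, and the median is -0.06 for the heat shock genes and 0.19 for the early genes.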

How the data were processed

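BMDMs were lysed in TRIzol, and a company prepared TruSeq libraries and sequenced them. The authors deposited 1 table of raw read counts per gene for the 8 libraries, by Ensembl identifier and symbol, not normalized. The genome build is mm10 in the submitters' processing notes, while the aligner, the counting tool and their settings are not given in the sources used here. The paper's methods name limma, and the legend of its volcano plot names edgeR with a cutoff of 0.05 on P together with 0.5 on the size of the log2 fold change. P was read here as unadjusted, which the legend does not state.

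In R 4.3.3 with edgeR 4.0.16, low genes were removed by filterByExpr and libraries scaled by TMM, and WT was compared with Gsdmd-/- over all 12911 genes left, by the two-sided quasi-likelihood test with Benjamini-Hochberg adjustment. Log2 CPM used a prior count of 2. Of the genes, 99.9% were found in GENCODE M21, which gave positions, exon lengths and shared 100-base windows. Library totals were 14935114 to 16794810 counts, and intervals and limits for single libraries cover counting error only. Libraries of 1 genotype differed by more than sampling noise in every pair, so none was counted as a duplicate.

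The named genes are all 10 members, Gsdmd, the genes of the other lists that passed either threshold, 11 fixed partners or early genes, and the 5 genes most like the members' mean. Lonp1, Hyou1 and Clpb were named besides these, after their values were seen. The members and lists were chosen with earlier results of these data known. Alternatives were voom in limma 3.58.1, DESeq2 1.42.0, edgeR's exact test, scaling by upper quartile or RLE, a filter of 10 counts in every library or none, each library left out, WT 2 and WT 3 left out, a cutoff of 1 on the log2 scale, Hspa1a and Hspa1b summed, and a replicate block. Replicate numbers were not taken to pair libraries. The tests were run on simulated data first.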

Additional observations from a re-analysis of the deposited data

Results flagged for a closer look

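In 64 groups of 4 libraries, 1 library stood far from the other 3 in 4 cases, where chance gives about 1 in 20 groups. Hsp90aa1 had 284 CPM in WT 4 against 230 to 238 in the other WT libraries, and its log2 fold change was 0.18 without WT 4 (0.10 with it). Hspb1 had 0.237 CPM in Gsdmd-/- 1 against 0.0591 to 0.0663, which is 4 counts against 1 count each. Hsf1 had 21.7 CPM in Gsdmd-/- 1 against 19.6 to 19.8 in the other Gsdmd-/- libraries. Ier3, an early gene that limits cell death, had 58.2 CPM in Gsdmd-/- 3 against 48.2 to 49.5.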

How the results depend on the processing

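In all 18 alternatives 0 heat shock genes passed at an adjusted p under 0.05, and 0 passed the unadjusted cutoff, where the lowest adjusted p of any member was 0.181 (Hsph1, without WT 1) and at most 1 member had an unadjusted p under 0.05 (Hsph1 without WT 1, Hsp90aa1 without WT 4). The median log2 fold change of the members stayed below 0, from -0.11 to -0.02. Among the members, signs turned for Hspe1, Dnajb1 and Hspa8, which lay near 0. Hspe1 moved from -0.01 to 0.0019 with upper-quartile scaling and to 0.0091 with no filter, and it ran from -0.0907 to 0.0975 with 1 library left out. Dnajb1 ran from -0.0986 to 0.0139 with 1 library left out, turning without WT 4. Without WT 2 and WT 3, Hspa8 turned to 0.0091, and Bag3, which is no member, from -0.34 to 0.10. With at least 10 counts in every library, Hspa1a and Hspa1b could not be tested. Over all genes, 18 were higher and 27 lower at an adjusted p under 0.05, against 105 and 187 with DESeq2, 92 and 154 with the exact test of edgeR, 44 and 65 with no filter, 12 and 23 with at least 10 counts, 53 and 108 without WT 2 and WT 3, and 8 to 28 and 5 to 56 with 1 library left out. Same-numbered libraries deviated together (r above 0.1) in 1 of 4 pairs (-0.20 to 0.18), so the numbers were not read as a pairing. With the replicate block, 9 genes were higher and 16 lower, and Hsph1 was at -0.26 on the log2 scale (adjusted p = 0.513). Depth limits Hspa1a, Hspa1b and Hspb1, which had at most 18 counts in a library.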

Other observations

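Chaperones of the endoplasmic reticulum, which fold secreted and membrane proteins, had a median log2 fold change of -0.12, against -0.01 over all tested genes, and a range of -0.34 to 0.04. Of 17 genes 15 were below 0, as were 6653 of all 12911 tested. None passed at an adjusted p under 0.05. At an unadjusted p under 0.05, 1 of the 17 was lower, Hyou1, while 7.3% of all tested genes were lower. Hspa5, the HSP70 of this compartment and the regulator of its stress sensors, had 483, 610, 665 and 616 CPM in WT and 501, 448, 573 and 490 CPM in Gsdmd-/- (log2 fold change -0.24, SE 0.116, adjusted p = 0.463). WT 1 was the low WT library, and without WT 2 and WT 3 the log2 fold change of Hspa5 was -0.13 (adjusted p = 0.761). Hsp90b1, the HSP90 of the same compartment, had 382 and 353 CPM on average (log2 fold change -0.11, adjusted p = 0.712).

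The 8 subunits of the cytosolic chaperonin TRiC, which folds actin and tubulin, had a median log2 fold change of 0.07, with 7 above 0 (6258 of all 12911) and a range of -0.02 to 0.15, and none passed the test. Over all 77 tested genes of the other chaperone lists the median was -0.02. The endoplasmic reticulum and TRiC lists are described here out of 10 such lists. Genes of a list share the same libraries, so their signs are not independent, and no test of a list was run.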
